A study of Mus musculus with 44 samples.

Results

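Microglia are the resident macrophages of the brain, and their thin processes contact synapses. The enrichment of microglial RNA on tagged ribosomes was compared here between the synaptosome fraction and whole homogenate, after each immunoprecipitate had been set against its own starting material. All 32 libraries of tamoxifen mice, out of 44 libraries in the series, entered the comparison, and the 12 libraries of control mice were left out. The tissue was dorsal cortex and hippocampus, taken at postnatal day 28 or 29, and the mouse strain is not given in the sources used here.

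Every mouse carried 1 copy of an inducible Cre recombinase under the Cx3cr1 promoter and 1 copy of a floxed allele for the ribosomal protein RPL10a fused to GFP, written CX3CR1-CreERT2 (+/-) x RPL10a-GFP flox (+/-). All of them were given tamoxifen (100 mg/kg) at 3 ages, postnatal days 15, 17 and 19. Translating ribosome affinity purification (TRAP) captures tagged ribosomes, with the messenger RNAs they carry, through the GFP. Cx3cr1 encodes the fractalkine receptor, which other brain macrophages and some blood leukocytes also express, so the tag marks Cx3cr1-expressing cells rather than microglia alone.

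The 4 fractions were Input (RNA of the homogenate), MG_TRAP (the immunoprecipitate of the homogenate), SN_input (RNA of the synaptosome fraction) and PeMP_TRAP (the immunoprecipitate of that fraction, titled SN_TRAP in part of the libraries). Each fraction had 8 libraries, lettered D to K. The 12 libraries lettered D to F are treated as one set and the 20 lettered G to K as another, since their files list different numbers of identifiers. The labels do not say whether a letter stands for 1 animal or for pooled animals, so the p-values below measure the spread between these libraries, which may be technical.

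A synaptosome is a nerve ending that has pinched off and resealed during homogenization, and crude preparations also carry glial membranes, myelin and mitochondria. Each immunoprecipitate therefore has its own input, since the synaptosome fraction starts from its own mixture of RNA. In the text, enrichment means the log2 ratio of an immunoprecipitate to its own input, and the difference means the enrichment in the synaptosome fraction minus that in whole homogenate. A difference of 0 means equal enrichment in both compartments. By arithmetic the same difference is also PeMP_TRAP minus MG_TRAP, less SN_input minus Input, so a transcript can have a low difference because its PeMP_TRAP level was low or because its SN_input level was high. In bulk samples fewer cells of a type and less RNA per cell cannot be told apart.

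Assigned reads ranged from 746616 to 35584637 per library. The PeMP_TRAP libraries of G to K were deep but simple, with 5372 to 7369 genes detected against 20949 to 22449 in Input of the same set. PeMP_TRAP libraries of D to F detected 11694 to 13096 genes. Within G to K, the median Pearson's r over 10 pairs of replicate libraries was 0.518 for PeMP_TRAP and 0.983 for Input, taken across genes, which are not independent replicates. Where a fraction had no reads of a gene, 3 counts were taken as its upper limit, or floor, which covers counting error only.

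Of 15710 genes tested, 1770 (11.3%) had a difference called by edgeR (adjusted p under 0.05), and 3586 (22.8%) passed at an unadjusted p. Of the 1770, 61 (0.388% of genes tested) had a higher enrichment in the synaptosome fraction than in whole homogenate and 1709 (10.9%) had a lower one. Genes called higher or lower below, with no fraction named, are so in this difference and not in their level. The number of calls moved with the processing. It was 52 (2 higher, 50 lower) of 10711 genes tested with libraries thinned at random to 740679 reads each, the depth of the shallowest library. The median library had 13459426 assigned reads, so calls lost when thinned were lost at a much lower depth. The number was 265 (2 and 263) in limma voom and 849 (23 and 826) with the replicate letter as a block. It was 0 in D to F fitted alone and 4600 (92 and 4508) in G to K fitted alone. It was 1052 without replicate G, 1014 without H, 1037 without I and 1162 without J. The median difference of all genes was -0.79, and -0.27 over the 7765 genes with an average log2 CPM (counts scaled to the size of each library) of at least 4. Of those 7765 abundant genes 260 (3.35%) were lower and 17 (0.219%) higher. The median of all genes was -0.60 with RLE factors and -0.48 with total counts. Of 78 called genes followed over the alternatives, 57 lost their call when thinned and 39 in voom, and these losses are given beside each gene. The replicate block ended 10 of the calls, which are listed at the end. Other called genes are named below too, and not all of their losses are given. The call was kept thinned, in voom, in G to K alone and with any 1 letter left out by 15 of the 78 followed genes: Aif1, B2m, C1qb, C1qc, Csf1r, Cst3, Ctss, Fcer1g, Fcgr3, Lgmn, Ly86, P2ry12, Sparc, Trem2 and Tyrobp.

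The 1709 lower genes were of different kinds by the tests of each enrichment. Over all genes MG_TRAP differed from Input in 6.82% (4.67% higher, 2.15% lower), and PeMP_TRAP was higher than SN_input in 6.15% and lower in 26.1%. In 1540 of them MG_TRAP did not differ from Input by the test and PeMP_TRAP was lower than SN_input. Another 78 were higher in both immunoprecipitates than in their inputs, 45 were higher in MG_TRAP alone, 14 were higher in MG_TRAP and lower in PeMP_TRAP, 29 passed in neither and 3 were lower in both. Of the 1709, 1467 (85.8%) had a count of 0 in all 5 PeMP_TRAP libraries of G to K, against 27.2% of the genes with no call. The number was 1410 of the first 1540, 21 of the 45, 19 of the 29, 14 of the 14, 3 of the 3 and 0 of the 78.

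**Figure D1:**
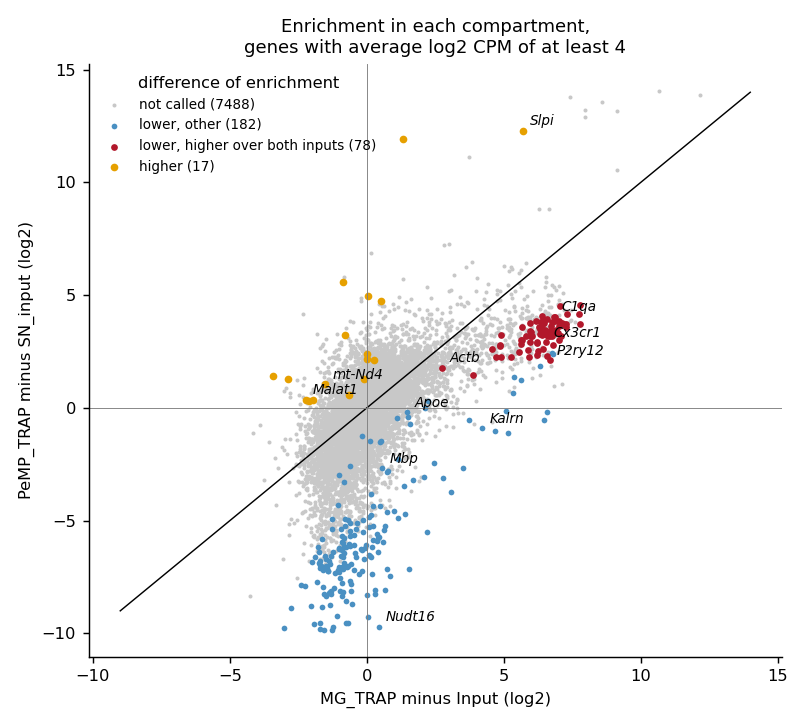
Enrichment in whole homogenate (MG_TRAP minus Input, log2, x axis) against enrichment in the synaptosome fraction (PeMP_TRAP minus SN_input, log2, y axis) for the 7765 genes with an average log2 CPM of at least 4; each point is a gene, coloured by its call in the difference, and the diagonal marks equal enrichment. The 78 genes enriched over both inputs lie in a group at a median of 6.49 on the x axis and 3.32 on the y axis, below the diagonal, while most other lower genes lie below 0 on the y axis.

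The share of genes called lower fell and rose again with abundance. It was 20.5% of the 4057 genes with an average log2 CPM under 2, 2% of the 2247 genes between 6 and 8, and 20.3% of the 79 genes at 10 or more. At the low end 806 of 830 lower genes had a count of 0 in all PeMP_TRAP libraries of G to K, and at 8 or more none did.

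**Figure D2:**
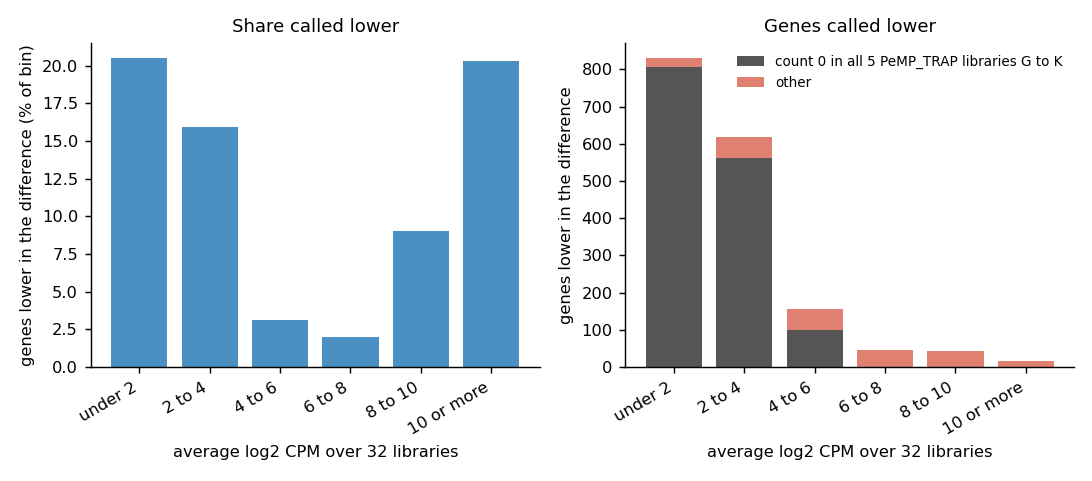
Left, genes called lower in the difference as a percentage of the genes in each bin of average log2 CPM; right, the number of such genes, split by whether all 5 PeMP_TRAP libraries of G to K had a count of 0. The share is 20.5% in the lowest bin and 20.3% in the highest, and all lower genes of the 2 highest bins have reads in PeMP_TRAP of G to K.

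Cx3cr1 (ENSMUSG00000052336, chromosome 9, 119901616 to 120069879, GRCm38), whose promoter drives the recombinase, was read first. Its lowest, median and highest log2 CPM over 8 libraries were 2.12, 2.79 and 3.33 in Input, 7.90, 9.00 and 10.79 in MG_TRAP, 4.85, 6.67 and 7.06 in SN_input, and 7.05, 9.38 and 10.96 in PeMP_TRAP. All MG_TRAP and all SN_input libraries lay above all Input libraries, and the ranges of MG_TRAP and PeMP_TRAP overlapped. The difference of -3.65 (SE 0.62, adjusted p = 0.000601 in edgeR) was made of an enrichment of 6.56 in whole homogenate and 2.91 in the synaptosome fraction. Thinned to equal depth, the difference of Cx3cr1 was -2.60 and its call was lost (adjusted p = 0.168 in edgeR). Seen the other way, PeMP_TRAP minus MG_TRAP was 0.10 (SE 0.43) and SN_input minus Input was 3.75 (SE 0.48).

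Rpl10a (ENSMUSG00000037805, chromosome 17, 28328471 to 28331033), which encodes the tagged protein, had a difference of -0.34 (SE 1.03, adjusted p = 0.933 in edgeR). Its libraries spread widely, from -3.09 to 7.20 log2 CPM in SN_input and from -1.57 to 9.12 in PeMP_TRAP, and the sign of its difference turned under RLE factors (0.22) and total counts (0.19).

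Homeostatic microglial genes, the transcripts that mark microglia of the healthy brain, were the group with the most lower members. All 25 of the list were tested, 0 rose, 21 (84%, against 10.9% of all genes) were lower and 4 did not pass, with a median difference of -3.05. The list's median was below 0 in 8 of 8 replicate letters, from -4.31 to -2.11. Its 2 lowest members were P2ry12 and Gpr34, and its 2 highest were Sall1, a transcription factor of microglial identity, at -1.50 (SE 1.01, adjusted p = 0.432 in edgeR) and Rgs10, a regulator of G protein signalling, at -2.07 (SE 0.51). The summed level of the list had a median of 411 CPM of all assigned reads in Input, 2502 in SN_input, 31187 in MG_TRAP and 24414 in PeMP_TRAP. No library of SN_input (1002 to 3982) overlapped Input (382 to 532), whereas the ranges of the 2 immunoprecipitates overlapped (20054 to 52223 and 13402 to 52012).

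P2ry12 (ENSMUSG00000036353, chromosome 3, 59216272 to 59262871) encodes the purinergic receptor by which microglial processes sense ATP and ADP. Its lowest, median and highest levels were 2.07, 4.15 and 5.16 log2 CPM in Input, 10.05, 10.90 and 12.28 in MG_TRAP, 6.15, 6.44 and 7.42 in SN_input, and 4.05, 8.34 and 11.16 in PeMP_TRAP. The SN_input libraries all lay above the Input libraries, and 1 PeMP_TRAP library of G to K lay below every SN_input library. The difference was -4.58 (SE 0.65, adjusted p = 4.29e-05 in edgeR), with PeMP_TRAP minus MG_TRAP at -2.16 (SE 0.46, adjusted p = 0.000862) and SN_input minus Input at 2.42 (SE 0.46).

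Gpr34 (ENSMUSG00000040229, chromosome X, 13632089 to 13640858), a lysophosphatidylserine receptor of microglia, had the same make-up. Its median levels were 2.39 log2 CPM in Input, 8.45 in MG_TRAP, 4.10 in SN_input and 6.79 in PeMP_TRAP, with highest and lowest libraries of 10.40 and 7.22 in MG_TRAP and of 8.55 and 4.48 in PeMP_TRAP. The difference was -3.88 (SE 0.74) and PeMP_TRAP minus MG_TRAP was -1.68 (SE 0.52, adjusted p = 0.0138 in edgeR). Thinned, the difference of Gpr34 was -2.74 and its call was lost (adjusted p = 0.214 in edgeR). The related receptor gene P2ry13 had a PeMP_TRAP minus MG_TRAP of -1.72 (SE 0.84) and a difference of -3.37 (SE 1.2), and passed neither test (adjusted p = 0.0608 in edgeR for the difference). Its difference was -5.93 and passed in limma voom (adjusted p = 0.0302), and did not pass thinned (0.303 in edgeR) or in G to K alone (0.0572).

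Other genes of the list differed from these receptors in their second term. For Tmem119, a membrane protein used as a microglial marker, the difference was -2.97 (SE 0.69) with PeMP_TRAP minus MG_TRAP at 0.36 (SE 0.49). Its 8 PeMP_TRAP libraries (7.93, 9.51 and 13.17) all lay above the 8 SN_input libraries (6.2, 6.53 and 7.01) and within the range of MG_TRAP only in part (9.35, 9.80 and 11.31). Aif1, which encodes the actin-binding marker IBA1, had a difference of -3.67 (SE 0.51), and Tyrobp, the adaptor of TREM2, one of -3.37 (SE 0.50). The values were -3.45 for the protease gene Ctss, -3.17 for the lectin receptor gene Siglech, -2.62 for the lipid receptor gene Trem2 and -2.53 for the CSF1 receptor gene Csf1r. All of these passed at an adjusted p under the threshold. Thinning ended the calls of Tmem119 (adjusted p = 0.0734 in edgeR), Siglech (0.0503) and Rgs10 (0.133). Besides Sall1 and P2ry13, Ptprc (-3.07, SE 1.93) and Cd33 (-2.24, SE 1.26) did not pass.

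**Figure D3:**
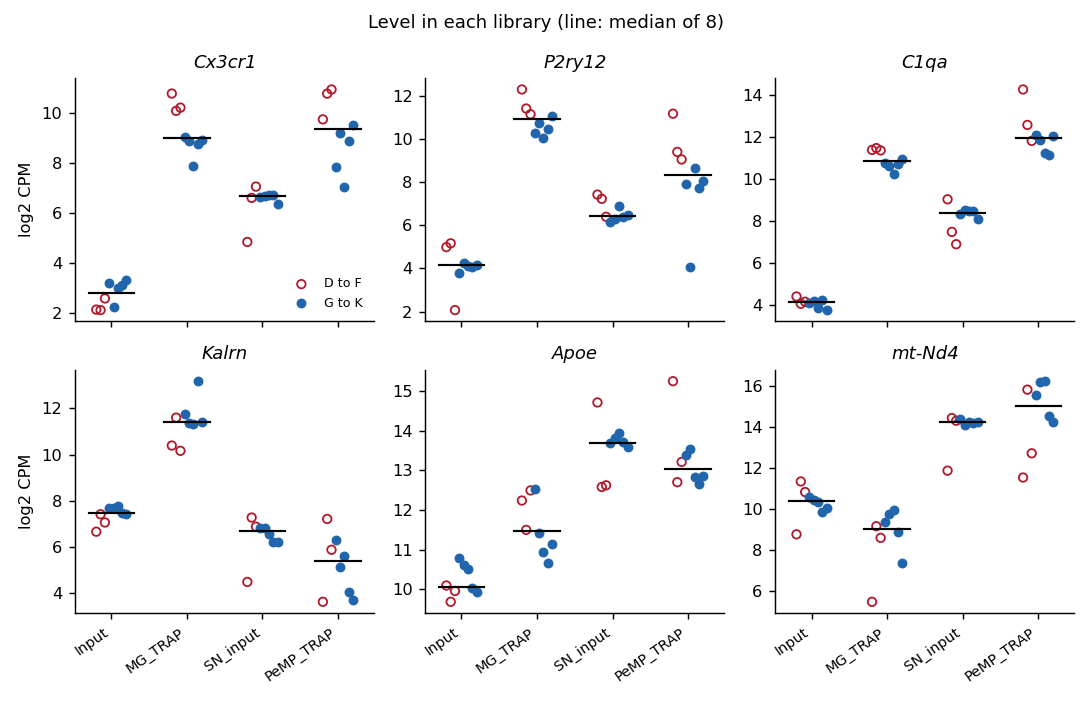
Level (log2 CPM, y axis) of 6 genes in each of the 8 libraries of the 4 fractions (x axis), with open circles for D to F, filled circles for G to K and a line at the median of 8. For Cx3cr1 and C1qa the median rises from Input to SN_input, and from MG_TRAP to PeMP_TRAP it goes from 9.00 to 9.38 for Cx3cr1 and from 10.86 to 11.96 for C1qa, while for P2ry12 it is lower in PeMP_TRAP than in MG_TRAP, and for Kalrn only MG_TRAP stands above the other fractions.

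Across the 78 genes that were enriched over both inputs and lower in the difference, the second split was the same in most members. SN_input exceeded Input in 78 of 78, by a median of 3.49 and from 1.66 (Actb) to 4.68 (Lag3), and passed its own test in 76, where 2.55% of all genes were called and 2.08% were called higher. PeMP_TRAP minus MG_TRAP had a median of 0.49, was called higher in 9 genes, lower in 2 and neither in 67, where 3.17% and 22% of all genes were called. The 2 lower genes were P2ry12 and Gpr34. The 9 higher genes were Actb, C1qa, C1qb, C1qc, Cst3, Cyba, Lag3, Laptm5 and Sparc, named after their values were seen. Scaling moved this term: its median was -0.08 with RLE factors (3 higher, 5 lower) and -0.30 with total counts (0 higher, 8 lower), while SN_input minus Input was called higher in 59 and 50 of the 78 genes. The 78 genes had a median average log2 CPM of 8.33, and 389 other genes were enriched over both inputs with no call in the difference, with a median difference of -0.90 and a median SN_input minus Input of 1.72. Since the calls on both enrichments chose these 78 genes, their shared signs are a description and not a separate test. Of the 78, 20 were called lower when thinned, 52 in limma voom, 0 in D to F alone, 49 without G and 51 without H.

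Complement tags synapses and debris for uptake by microglia, and C1q is its initiating molecule. Of 14 tested genes on that list 0 were higher and 6 (42.9%) were lower, with a median difference of -2.70, or -2.93 over the 8 with an average log2 CPM of at least 4. C1qa (ENSMUSG00000036887, chromosome 4, 136895917 to 136898803) had levels of 3.77, 4.14 and 4.42 log2 CPM in Input, 10.24, 10.86 and 11.48 in MG_TRAP, 6.90, 8.41 and 9.04 in SN_input, and 11.15, 11.96 and 14.27 in PeMP_TRAP. SN_input lay above Input in every library and PeMP_TRAP above SN_input, with an overlap of MG_TRAP and PeMP_TRAP. Its difference was -2.80 (SE 0.45, adjusted p = 0.000296 in edgeR). C1qb and C1qc, which encode the other chains, had differences of -3.16 (SE 0.48) and -3.36 (SE 0.50). Itgam, the alpha chain of complement receptor 3, stood at -3.34 (SE 0.81). The C1 inhibitor gene Serping1 was lower as well, and had an average log2 CPM of 2.10 and a count of 0 in all 8 PeMP_TRAP libraries, so its fitted difference of -11.56 (SE 2.65) is no bound. In limma voom Serping1 was -0.78 (adjusted p = 0.909), and its call was lost without H (adjusted p = 0.0503 in edgeR). Thinning ended the calls of C1qa (-2.44, adjusted p = 0.0966 in edgeR) and Itgam (-2.36, adjusted p = 0.290).

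The promoters of these genes were read for the letters GAGGAAGT, a site of the ETS factor PU.1, whose gene Spi1 is itself among the 78. Both strands of the 250 bases before the start site were searched in RefSeq promoters of build GRCm38.p6, and 56 of the 78 genes matched the table. The letters were found in 3 of 56 (5.36%), namely C1qc, Hpgds and Samsn1, against 2.74% of the 11252 matched genes of all those tested and 2.79% of all promoters in the table. The stretch of the C1qc promoter is printed as an example of the genes that moved together, with the motif in capitals on the opposite strand (chr4:136893056-136893155, minus strand). A match is a description of letters and not of binding.
C1qc: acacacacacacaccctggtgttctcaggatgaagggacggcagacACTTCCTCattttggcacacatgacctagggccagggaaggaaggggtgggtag

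Fc receptors bind antibody-coated targets and signal through the kinases and phosphatases listed with them. Of 12 tested genes 0 rose and 4 (33.3%) were lower, with a median difference of -2.63 (8 of 8 letters below 0). Fcer1g, the shared signalling chain, had a difference of -3.66 (SE 0.51, adjusted p = 3.35e-05 in edgeR) and Fcgr3, an activating receptor, one of -3.58 (SE 0.66). The inhibitory receptor gene Fcgr2b (-4.41, SE 1.42) and the lipid phosphatase gene Inpp5d (-4.0, SE 0.90) were the lowest members, and both were enriched in MG_TRAP by the test but not in PeMP_TRAP. With 1 letter left out, the call of Fcgr2b was lost without any of D to I (adjusted p up to 0.0805 in edgeR). It was lost as well thinned (0.145) and in G to K alone (0.215), and that of Inpp5d was lost thinned (0.0823).

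Among phagocytosis receptors and adaptors, 0 of 21 tested genes rose and 5 (23.8%) were lower, with a median difference of -2.43, or -1.93 over the 17 more abundant ones. The lower genes were Trem2 and Tyrobp, the engulfment receptor gene Megf10 (-9.01, with an average log2 CPM under 4), the bridging ligand gene Pros1 (-3.67, SE 1.10) and the small GTPase gene Rac2 (-3.34, SE 0.84). The call of Pros1 was lost without G, H, I or J (adjusted p up to 0.0754 in edgeR). Pros1 lost it too thinned (0.255) and in voom (0.0907), and Rac2 thinned (-2.38, adjusted p = 0.270). All 8 PeMP_TRAP libraries had a count of 0 for Megf10, so its fitted value is no bound, and its call was lost thinned (0.305) and in voom (-1.27, adjusted p = 0.768). The receptor kinase gene Axl had the lowest value of the abundant members at -3.81 (SE 1.82, adjusted p = 0.198 in edgeR). It was -8.19 and passed in G to K alone (adjusted p = 0.00722 in edgeR), and was -2.92 in limma voom (0.404).

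Toll-like receptors and the inflammasome sense microbial and damage signals. Of 17 tested genes 0 rose and 7 (41.2%) were lower, with a median of -2.62, or -2.25 over the 7 abundant ones. Cd14, a co-receptor for lipopolysaccharide, had a difference of -4.02 (SE 1.14, adjusted p = 0.0173 in edgeR) from median levels of 0.70 log2 CPM in Input, 7.14 in MG_TRAP, 3.48 in SN_input and 5.53 in PeMP_TRAP. Its PeMP_TRAP libraries ran from 2.48 to 8.96 and overlapped those of every fraction but Input. Ly86 (-3.38, SE 0.54), a partner of the receptor RP105, and Unc93b1 (-3.09, SE 0.92), the chaperone of endosomal receptors, were lower as well. The other 4 lower genes were the receptors Tlr1, Tlr2, Tlr4 and Tlr6, each with an average log2 CPM under 2. All 4 had a count of 0 in every PeMP_TRAP library of G to K, so their fitted differences, from -10.32 (Tlr1) to -7.07 (Tlr2), are no bound. None of the 4 passed in limma voom (adjusted p = 0.364 to 0.700), and none was tested thinned. With 1 letter left out, the calls were lost for Tlr1 without G, for Tlr6 without H, and for Tlr2 and Tlr4 without any of G to K (adjusted p up to 0.157 in edgeR). The call of Cd14 was lost without G, H, I or K (adjusted p up to 0.0663 in edgeR). That of Unc93b1 was lost without G, I or J (up to 0.0671). Thinned, Cd14 (0.159) and Unc93b1 (0.0587) lost their calls.

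Chemokines recruit and position leukocytes. Of 15 tested chemokine and cytokine genes 0 rose and 4 (26.7%) were lower, with a median of -2.34. Ccl12 (-4.01, SE 1.23) and Ccl6 (-3.29, SE 0.87) were enriched in both immunoprecipitates, while Ccl9 (-4.46, SE 1.43) and Ccl4 (-7.89, SE 2.22) were enriched in MG_TRAP alone by the test. The call of Ccl12 was lost without E, F, G, I or J (adjusted p up to 0.0867 in edgeR). Those of Ccl9 and Ccl4 were lost without D, F, G, H or K (up to 0.0929) and without D or H (up to 0.0538), and the difference of Ccl4 was -12.68 without E. Thinned, Ccl6 was -1.48 (adjusted p = 0.705 in edgeR), Ccl12 -2.74 (0.408) and Ccl9 -3.23 (0.339), and none of them passed. Ccl4 was not tested thinned, and 6 of its 8 PeMP_TRAP libraries had a count of 0. In limma voom Ccl12 (adjusted p = 0.121) and Ccl4 (0.106) did not pass, and in G to K alone Ccl12 (0.228) and Ccl9 (0.162) did not.

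In antigen presentation 3 of 17 genes (17.6%) were lower and 0 higher, with a median of -1.49, or -1.02 over the 13 abundant ones. Psmb8, an immunoproteasome subunit, stood at -3.43 (SE 0.81) and B2m, the light chain of class I molecules, at -2.07 (SE 0.48). Thinned, Psmb8 was -2.18 and lost its call (adjusted p = 0.481 in edgeR). The class I heavy chain gene H2-K1 was -0.93 (SE 0.79, adjusted p = 0.580 in edgeR). The third lower gene, the class II gene H2-Aa, had an average log2 CPM of 1.23 and a count of 0 in all 8 PeMP_TRAP libraries, so its fitted difference of -11.91 (SE 2.26) is no bound. In limma voom H2-Aa was -4.56 (adjusted p = 0.400).

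Of 24 lysosomal genes, all of them with an average log2 CPM of at least 4, 5 (20.8%, against 3.35% of all genes at that abundance) were lower and 0 higher. Their median difference was -1.19, against -0.27, and below 0 in 8 of 8 letters. Ctsh (-3.56, SE 1.15), Ctss and Lgmn (-2.10, SE 0.56) encode proteases, and Cd68 (-2.60, SE 0.87) encodes a membrane glycoprotein of the compartment. The call of Ctsh was lost without any of E to J (adjusted p up to 0.0949 in edgeR). That of Cd68 was lost without any of G to K (up to 0.123). Thinned, both lost their calls (0.0892 for Ctsh and 0.239 for Cd68), and Ctsh lost its call in limma voom (0.0788) and in G to K alone (0.158). The cathepsin genes Ctsd (-1.05, SE 0.49, adjusted p = 0.179 in edgeR) and Ctsb (-0.68, SE 0.68), and the progranulin gene Grn (-0.88, SE 0.55), did not pass. In G to K alone Ctsd (-1.45, adjusted p = 3.56e-05 in edgeR) and Ctsb (-1.63, 0.0102) passed and Grn (-1.20, 0.0562) did not.

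Of 18 microglial transcription factor genes 2 (11.1%) were lower and 0 higher, against 10.9% of all genes tested, with a median of -1.34. Both were among the 15 abundant ones (13.3%, against 3.35% of abundant genes). They were Spi1 at -3.53 (SE 0.92) and Irf8, an interferon regulatory factor of the myeloid lineage, at -2.76 (SE 0.72). Ikzf1 had -2.97 (SE 1.27, adjusted p = 0.136 in edgeR). Thinned, Spi1 (adjusted p = 0.143 in edgeR) and Irf8 (0.0933) lost their calls.

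Actin and motility genes, which shape moving processes, had a median of -0.87 over 26 tested, with 7 of 8 letters below 0, and 4 (15.4%) were lower and 0 higher. Over the 25 abundant ones the median was -0.90 with 4 (16%) lower, against -0.27 and 3.35% of all abundant genes. Lcp1, the leukocyte plastin, had -4.25 (SE 1.09), Rac2 -3.34 and Msn, which links actin to the membrane, -3.03 (SE 0.81). Actb (ENSMUSG00000029580, chromosome 5, 142903115 to 142906754), the cytoplasmic actin of all cells, had a difference of -0.98 (SE 0.25, adjusted p = 0.00803 in edgeR), the smallest among the 78. Its call was lost without G (adjusted p = 0.0613 in edgeR), and that of Msn without G or H (up to 0.0522). Thinned, Lcp1 (-2.79, adjusted p = 0.295 in edgeR), Msn (0.271) and Actb (0.124) lost their calls, and Actb lost it in limma voom (0.119). Its median levels were 11.97 log2 CPM in Input, 14.55 in MG_TRAP, 13.90 in SN_input and 15.47 in PeMP_TRAP. The thymosin gene Tmsb4x (ENSMUSG00000049775, chromosome X, 167207093 to 167209315), an actin monomer binder and the most abundant gene enriched in both compartments without a call, had median levels of 10.11, 12.49, 11.17 and 12.86 in the same order, with all 4 ranges overlapping. Its difference was -0.90 (SE 0.51, adjusted p = 0.309 in edgeR), and in G to K alone it was -0.81 and passed (0.0148).

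Cst3 (cystatin C, a secreted protease inhibitor) and Sparc (a secreted matrix protein) were, with Actb, the 3 most abundant of the 78, and are named after their values were seen. Their differences were -1.94 (SE 0.39) and -2.45 (SE 0.37), with SN_input minus Input at 3.26 and 3.67.

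Among members with an average log2 CPM of at least 4, where 3.35% of all genes were lower, the lower genes were 5 of 8 in the complement list, 3 of 7 among Toll-like receptors and inflammasome genes, 4 of 11 in the Fc receptor list, 3 of 10 among chemokines, 4 of 17 among phagocytosis genes and 2 of 13 in antigen presentation. All 25 homeostatic microglial genes were that abundant.

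**Figure D4:**
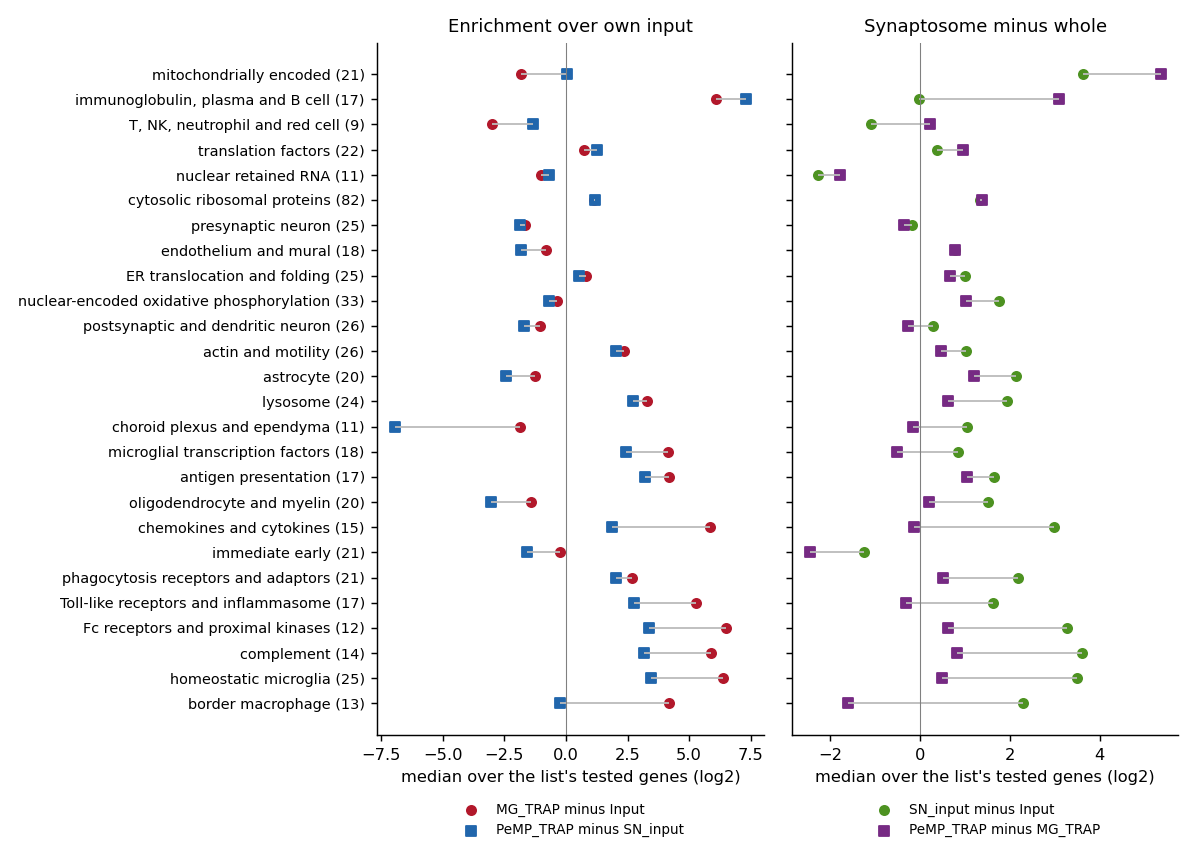
Median over the tested genes of each of 26 lists (number tested in brackets), ordered by their median difference; left, the enrichment in MG_TRAP and in PeMP_TRAP over their own inputs, and right, SN_input minus Input and PeMP_TRAP minus MG_TRAP, all in log2. The homeostatic microglia list falls from 6.37 to 3.45 on the left, while on the right SN_input minus Input is 3.49 and PeMP_TRAP minus MG_TRAP 0.50.

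A further 45 genes were enriched in MG_TRAP by the test, not in PeMP_TRAP, and lower in the difference. Their median average log2 CPM was 2.58, and 21 of them had a count of 0 in all PeMP_TRAP libraries of G to K. In 27 of the 45 PeMP_TRAP was lower than MG_TRAP, against 22% of all genes, and SN_input was higher than Input in 8, against 2.08%. The genes described next were picked for their abundance after their values were seen.

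Kalrn (ENSMUSG00000061751, chromosome 16, 33969073 to 34573532) encodes a guanine nucleotide exchange factor best known from dendritic spines of neurons. Its lowest, median and highest levels were 6.67, 7.46 and 7.77 log2 CPM in Input, 10.16, 11.39 and 13.17 in MG_TRAP, 4.50, 6.70 and 7.28 in SN_input, and 3.64, 5.39 and 7.22 in PeMP_TRAP. All MG_TRAP libraries lay above all libraries of the other 3 fractions, which overlapped. The difference was -5.11 (SE 0.65, adjusted p = 1.04e-05 in edgeR), made of an enrichment of 4.22 in whole homogenate and -0.89 in the synaptosome fraction. PeMP_TRAP minus MG_TRAP was -5.95 (SE 0.54, adjusted p = 4.54e-10) and SN_input minus Input -0.84 (SE 0.44, adjusted p = 0.495), so here the split was opposite to that of Cx3cr1. The difference was -4.20 in D to F and -5.69 in G to K. In limma voom Kalrn was -5.16 and did not pass (adjusted p = 0.0687), while its call was kept thinned.

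Apoe (ENSMUSG00000002985, chromosome 7, 19696109 to 19699188), the apolipoprotein of astrocytes and activated microglia, had the other make-up. Its median levels were 10.06 log2 CPM in Input, 11.46 in MG_TRAP, 13.70 in SN_input and 13.04 in PeMP_TRAP, and all SN_input libraries lay above all Input libraries. The difference was -1.66 (SE 0.45, adjusted p = 0.0131 in edgeR), with SN_input minus Input at 3.46 (SE 0.35) and PeMP_TRAP minus MG_TRAP at 1.80 (SE 0.33). In limma voom the difference of Apoe was -1.09 and did not pass (adjusted p = 0.325). Plek, a substrate of protein kinase C in leukocytes, had a difference of -4.43 (SE 1.16) from medians of 2.26, 8.05, 4.68 and 6.22 in the order Input, MG_TRAP, SN_input and PeMP_TRAP, with 1 PeMP_TRAP library at a count of 0. The protease inhibitor gene Serpine2 and the ganglioside activator gene Gm2a had -2.11 (SE 0.72) and -1.92 (SE 0.54). The call of Serpine2 was lost without any of E to I or K (adjusted p up to 0.119 in edgeR). That of Gm2a was lost without H, I or K (up to 0.0579). Thinned, Plek (0.189), Serpine2 (0.105) and Gm2a (0.140) lost their calls, and Serpine2 lost it in voom (0.0582) and in G to K alone (0.0720).

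The 14 genes with opposite calls, higher in MG_TRAP and lower in PeMP_TRAP than in their inputs, all had a count of 0 in the 5 PeMP_TRAP libraries of G to K. None had an average log2 CPM of at least 4, and they included the B cell receptor gene Cd22 and the signalling regulator gene Rgs1, named after their values were seen.

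The largest class, 1540 genes low in PeMP_TRAP and not called in MG_TRAP, was mostly of low abundance: 160 had an average log2 CPM of at least 4 and 17 of at least 6. The 12 lowest differences among genes that met the naming rule all came from this class. They ranged from -10.15 (Nudt16) to -8.30 (Vps37c) in the fit, and the others were Slc15a2, Rtca, Fat1, Cops7b, Mycl, Ipcef1, Uspl1, Lhfpl3, Fahd2a and Aar2. Every PeMP_TRAP library of each of the 12 was at or under the floor of 3 counts, so the fitted values are no bound. Over the highest floor of PeMP_TRAP, the mean CPM of SN_input was at least 2.42-fold (Cops7b) to at least 12.4-fold (Slc15a2) higher. All 12 lost their call when thinned, at -7.36 (Nudt16) to -4.71 (Fat1), with adjusted p = 0.0667 to 0.256 in edgeR. In limma voom 11 of the 12 lost it, all but Fahd2a (adjusted p = 0.0474), and the 12 values ran from -6.70 (Mycl) to -3.40 (Lhfpl3).

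Nudt16 (ENSMUSG00000032565, chromosome 9, 105128903 to 105131824), a nucleotide hydrolase of general housekeeping, shows the pattern. Its median levels were 4.49 log2 CPM in Input, 5.11 in MG_TRAP and 3.86 in SN_input, and 7 of 8 PeMP_TRAP libraries had a count of 0. In the same libraries of G to K fewer genes were detected than in any other fraction, and the part of that in these 12 values was not tested.

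Genes of other brain cells were described by their lists. Presynaptic genes had a median difference of -0.12 (1 of 25 or 4% lower, 0 higher), which was 0.13 with RLE factors, and postsynaptic and dendritic genes -0.74 (1 of 26 or 3.85% lower, 0 higher). Both medians turned with the set, from 0.35 in D to F to -0.58 in G to K for presynaptic genes and from 0.32 to -0.98 for postsynaptic and dendritic genes. The genes called lower were Gad2 (-5.60, SE 1.57), which makes the transmitter GABA, and Shank3 (-3.59, SE 1.13), a scaffold of the postsynaptic density. The calls of Gad2 and Shank3 were lost thinned (adjusted p = 0.192 and 0.606 in edgeR), without G, H or I for Gad2 (up to 0.0579) and without any of G to K for Shank3 (up to 0.0965). In limma voom Gad2 did not pass (adjusted p = 0.344). Of 20 astrocyte genes, all abundant, 2 (10.0%, against 10.9% of all genes and 3.35% of abundant ones) were lower, Apoe and the glutamine synthetase gene Glul (-1.53, SE 0.50), with a median of -1.01. The call of Glul was lost without E or any of G to K (adjusted p up to 0.119 in edgeR). It was lost too thinned (0.231) and in voom (0.106). The summed astrocyte level had a median of 7546 CPM in Input, 29591 in SN_input, 6169 in MG_TRAP and 9573 in PeMP_TRAP.

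Oligodendrocyte and myelin genes had a median of -1.56, with 4 of 20 (20%, against 10.9% of all genes) lower, and their list was below 0 in 8 of 8 letters. Over the 16 with an average log2 CPM of at least 4 the median was -1.48 and 2 (12.5%, against 3.35%) were lower. Mbp, the myelin basic protein gene whose RNA travels into processes, had median levels of 10.31 log2 CPM in Input, 9.77 in MG_TRAP, 14.34 in SN_input and 11.12 in PeMP_TRAP. Its difference of -3.22 (SE 0.83, adjusted p = 0.00932 in edgeR) was -0.20 in D to F and -4.91 in G to K. The call of Mbp was lost without H or I (adjusted p up to 0.0640 in edgeR). In limma voom Mbp did not pass (adjusted p = 0.101), and thinned its call was kept. The other lower members were Ermn (-8.08, SE 1.64), Aspa and Olig2, with at most 5 counts in any PeMP_TRAP library. All 3 lost their calls thinned (adjusted p = 0.0928 to 0.227 in edgeR) and in limma voom (0.108 to 0.915), and Olig2 without G, H, I or K (up to 0.0859). The summed level of the list in SN_input ran from 3951 to 63269 CPM, against 4284 to 9701 in Input.

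Endothelial and mural genes had 3 of 18 (16.7%) lower, choroid plexus and ependymal genes 4 of 11 (36.4%), and the list of T, NK, neutrophil and red cell genes 1 of 9 (11.1%), against 10.9% of all genes, with 0 higher in each. The medians of the first 2 lists were -0.22 and -1.27, or 2.14 over 4 genes and -0.05 over 2 genes with an average log2 CPM of at least 4, of which 0 were lower in either list. Their signs turned with the set. The median of the first list was 1.39 in D to F and -6.28 in G to K, and that of the second 0.66 and -1.84. Immediate early genes had 3 of 21 (14.3%) lower and a median difference of -2.34, which was 1.45 in D to F and -4.70 in G to K. Over the 11 of them with an average log2 CPM of at least 4 the median was 0.47 and 0 were lower.

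Border macrophages, the Cx3cr1-expressing macrophages of meninges and vessels, could also carry the tag. Of their 13 tested genes 5 (38.5%, against 10.9% of all genes) were lower and 0 higher, with a median of -5.30. Over the 4 with an average log2 CPM of at least 4 the median was -2.71 and 1 (25%, against 3.35%) was lower. The other lower genes were scarcer. Of all genes, 20.5% of those under 2 and 15.9% of those from 2 to 4 were lower. Dab2, an endocytic adaptor gene, was the abundant member that passed (-5.91, SE 1.81). The call of Dab2 was lost without any of H to K (adjusted p up to 0.0991 in edgeR). It was lost too thinned (0.360) and in voom (0.129). The summed level had a median of 25.5 CPM in Input, 70.5 in SN_input, 291 in MG_TRAP and 530 in PeMP_TRAP. The part of these cells in the difference was not tested.

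Immunoglobulin, plasma and B cell genes had a median difference of 1.69 over 17 tested, with 0 called in either direction. Their summed level ranged from 147 to 5661 CPM in PeMP_TRAP and from 46.6 to 313 in SN_input, and from 726 to 2704 in MG_TRAP and from 43.3 to 271 in Input. Both immunoprecipitates had a median above the highest library of their own input (2189 and 1220).

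The 61 genes with a higher difference were fewer than the lower ones and mostly scarce: 17 had an average log2 CPM of at least 4 and 12 of at least 6. In 24 of the 61 MG_TRAP was lower than Input (2.15% of all genes), and in 24 PeMP_TRAP was higher than SN_input (6.15% of all genes). In 1, Slpi, both immunoprecipitates were higher than their inputs. PeMP_TRAP was higher than MG_TRAP in 47 of the 61 (3.17% of all genes). Of the 61, 2 kept their call thinned, 1 in limma voom, 19 with the replicate letter as a block, 0 in D to F alone and 35 in G to K alone. With 1 of G to K left out, 24 to 31 kept it (30 without G, 28 without H, 26 without I, 24 without J and 31 without K).

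Mitochondrially encoded genes supplied 5 of them. Their messengers are translated inside the organelle on ribosomes that do not contain RPL10a. Of 21 tested genes on that list 5 were higher, against 0.388% of all genes, and 0 lower, with a median difference of 1.96 and 7 of 8 letters above 0. All 5 were among the 15 members with an average log2 CPM of at least 4, where 0.219% of genes were higher. The highest members, mt-Tn and mt-Tc, encode the transfer RNAs for asparagine and cysteine and lie next to each other on the mitochondrial genome, 32 bases apart on the minus strand. Their sequences are given because these short genes had the largest values on the list, from the GENCODE M21 transcripts (GRCm38), 71 bases at positions 5089 to 5159 and 66 bases at positions 5192 to 5257.
mt-Tn: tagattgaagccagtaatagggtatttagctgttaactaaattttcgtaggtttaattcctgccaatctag
mt-Tc: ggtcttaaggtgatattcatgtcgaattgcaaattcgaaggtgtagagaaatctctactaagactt

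No MG_TRAP library had more than 3 counts of mt-Tn, so its fitted difference of 4.82 (SE 1.44) is no bound. Its lowest, median and highest log2 CPM levels were 0.21, 1.46 and 7.53 in SN_input and -0.22, 3.55 and 8.61 in PeMP_TRAP, which overlapped. For mt-Tc the MG_TRAP levels were -3.09, -1.74 and 2.87 and those of PeMP_TRAP 3.96, 5.83 and 10.55, with no overlap, and the difference was 4.14 (SE 1.30, adjusted p = 0.0311 in edgeR). It was 2.40 (adjusted p = 0.146) in G to K alone and 1.10 (adjusted p = 0.724) in limma voom. The call of mt-Tc was lost without any of E to I (adjusted p up to 0.0709 in edgeR). That of mt-Tn was lost without E or G (up to 0.0800). Thinned, mt-Tc (0.0901) and mt-Tn (0.329) lost their calls, and mt-Tn was 2.03 in voom (0.471).

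The protein-coding members that passed were 3: mt-Nd4 (2.58, SE 0.64), mt-Cytb (2.42, SE 0.59) and mt-Nd2 (2.33, SE 0.62), subunits of complexes I and III of the respiratory chain. In limma voom none of the 3 passed, with 1.80 (adjusted p = 0.204), 1.79 (0.270) and 1.72 (0.182) in the same order, and mt-Nd2 lost its call thinned (0.101). For mt-Nd4 (mitochondrial genome, 10167 to 11544) the lowest, median and highest levels were 8.77, 10.40 and 11.35 log2 CPM in Input, 5.49, 9.03 and 9.94 in MG_TRAP, 11.88, 14.26 and 14.44 in SN_input, and 11.54, 15.04 and 16.23 in PeMP_TRAP. Both synaptosome fractions lay above both whole fractions in every library, and PeMP_TRAP overlapped SN_input. MG_TRAP minus Input was -1.52, and PeMP_TRAP minus SN_input was 1.06 (adjusted p = 0.0689 in edgeR). The summed level of the list had a median of 25512.5 CPM in Input, 8631 in MG_TRAP, 188780 in SN_input and 177090 in PeMP_TRAP. The median of PeMP_TRAP was thus below that of its own input, as was that of MG_TRAP. Libraries ran from 153120 to 660430 in SN_input and from 10638 to 314440 in PeMP_TRAP. The sum includes the ribosomal RNA mt-Rnr2, lower in both immunoprecipitates by the test. It was 50.4% and 51.6% of SN_input reads in E and F, 2.41% to 4.25% in G to K, and 0.159% to 7.17% in PeMP_TRAP. Of the 21 genes, 0 were higher and 2 lower in PeMP_TRAP than SN_input, and 0 higher and 8 lower in MG_TRAP than Input.

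Nuclear-encoded subunits of the respiratory chain were listed separately. Of 33 tested genes 1 was lower, Cox4i1 (-1.08, SE 0.35), 0 were higher, and the median difference was -0.57. The call of Cox4i1 was lost without any of G to K (adjusted p up to 0.115 in edgeR). It was lost too thinned (0.314) and in voom (0.106). In 10 of the 33 (30.3%, against 26.1% of all genes) PeMP_TRAP was lower than SN_input, and in 16 (48.5%, against 2.08%) SN_input was higher than Input.

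Malat1 (ENSMUSG00000092341, chromosome 19, 5795690 to 5802672), a noncoding RNA kept in the nucleus, had a difference of 2.60 (SE 0.71, adjusted p = 0.0135 in edgeR). Its median levels were 9.75 log2 CPM in Input (8.96 to 14.68), 7.35 in MG_TRAP (lowest 6.63), 6.50 in SN_input (4.32 to 11.05) and 7.01 in PeMP_TRAP (3.26 to 11.95). All 4 ranges overlapped. MG_TRAP minus Input was -2.23 and SN_input minus Input -3.66, so the higher difference arose with PeMP_TRAP minus MG_TRAP at -1.06 (SE 0.50). Of 11 nuclear retained RNAs 1 was higher and 1 lower (Mirg), with a median of 0.01, or 2.07 over the 3 with an average log2 CPM of at least 4. The call of Malat1 was lost without K (adjusted p up to 0.0555 in edgeR). It was lost too in voom (0.416) and thinned (0.0971). Mirg had a count of 0 in all 8 PeMP_TRAP libraries, and its call was lost without G, H or I (up to 0.0791) and in voom (0.989).

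Slpi (ENSMUSG00000017002, chromosome 2, 164354070 to 164389095), a secreted inhibitor of leukocyte proteases, had the largest difference among genes that met the naming rule, 6.6 (SE 1.84, adjusted p = 0.0153 in edgeR). Its counts in PeMP_TRAP were 0, 1 and 456 in D to F and 3762, 1732, 3346, 32301 and 26407 in G to K, and in MG_TRAP 0, 9, 126, 24, 3, 70, 1752 and 1174 in the order D to K. The same letters J and K were the highest in both immunoprecipitates, while 7 of 8 SN_input libraries had a count of 0, so the fitted value is no bound. Without G, the SN_input library that had reads, it was 10.27. The call of Slpi was lost without H (adjusted p up to 0.0536 in edgeR). It was lost as well with libraries thinned to equal depth (5.22, adjusted p = 0.159) and in limma voom (5.03, adjusted p = 0.268).

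The rest of the 12 highest included Mdm2 (4.23, SE 1.22), the ubiquitin ligase of p53, the Mediator subunit gene Med15 (4.01, SE 1.32), the septin gene Sept1 (6.47, SE 1.98), the muscle phosphoglycerate mutase gene Pgam2 (4.92, SE 1.62) and Zc3h13 (2.37, SE 0.67), which belongs to the RNA methylation complex. Sept1 had a count of 0 in 3 PeMP_TRAP libraries and Pgam2 in 3 MG_TRAP libraries. Med15 was 2.33 (adjusted p = 0.204 in edgeR) without D and kept its call only without E. The call of Sept1 was lost without F, I or J (adjusted p up to 0.1 in edgeR). In limma voom Sept1 was 1.15 (adjusted p = 0.790), and thinned 2.3 (adjusted p = 0.735). The calls were lost for Pgam2 without any of G to K (up to 0.11), for Mdm2 without G, I or J (up to 0.0834) and for Zc3h13 without J (0.0625). Thinned and in limma voom all 5 of these genes lost their calls (adjusted p from 0.0668 to 0.790).

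More abundant higher genes, picked after their values were seen, were the splicing factor gene Rbm25 (2.18, SE 0.52), the chaperone gene Hsp90ab1 (1.23, SE 0.37) and the glycolytic enzyme gene Pkm (1.38, SE 0.45). Rbm25 kept its call without any 1 letter and lost it thinned (adjusted p = 0.214 in edgeR). The call of Hsp90ab1 was lost without any of H to K (adjusted p up to 0.0911 in edgeR). That of Pkm was lost without any of E to K (up to 0.11). Thinned, Hsp90ab1 (0.346) and Pkm (0.491) lost their calls, and in voom both did (0.0693 and 0.0541).

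Translation factors had a median difference of 0.54 over 22 genes, above 0 in 8 of 8 letters. Only Eif3h (ENSMUSG00000022312, chromosome 15, 51786558 to 51865523), a subunit of initiation factor 3, passed (1.88, SE 0.57, adjusted p = 0.0260 in edgeR). Its lowest, median and highest levels were 5.39, 6.93 and 7.02 log2 CPM in Input, 6.02, 7.04 and 7.52 in MG_TRAP, 4.82, 7.10 and 7.44 in SN_input, and 6.51, 8.84 and 9.68 in PeMP_TRAP. The median of PeMP_TRAP was above the highest library of the other 3 fractions, and all ranges overlapped. The call of Eif3h was lost without G, I, J or K (adjusted p up to 0.0819 in edgeR). Thinned, Eif3h was 1.08 (adjusted p = 0.725 in edgeR), and in limma voom it did not pass (0.0609). The elongation factor genes Eef1a1 (0.40, SE 0.53) and Eef2 (0.92, SE 0.40) did not pass. In G to K alone Eef2 was 0.54 and passed (adjusted p = 0.035 in edgeR), and Eef1a1 did not (0.753).

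Cytosolic ribosomal protein genes had a median difference of 0.01 over 82 tested, with 0 called by edgeR in either direction. The median difference was 0.25 with RLE factors and 0.40 with total counts. PeMP_TRAP minus SN_input was called higher in 37 of the 82, against 6.15% of all genes, and MG_TRAP minus Input in 20, against 4.67%. PeMP_TRAP was higher than MG_TRAP in 43, against 3.17% of all genes, and SN_input higher than Input in 22, against 2.08%, with 0 lower in both. Genes of ER translocation and folding had a median of -0.37 over 25, with 0 called.

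The difference was then fitted within each set. In D to F 0 of 15710 genes passed in edgeR (1196 at an unadjusted p, 7.61%), and in G to K 4442 passed (28.3%), 67 of them higher. The difference between the sets passed for 1820 genes (11.6%), of which 13 (0.0827%) were higher in G to K. The median difference of all genes was 0 in D to F and -1.51 in G to K.

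For the 78 genes enriched over both inputs the median difference was -2.75 in D to F and -3.32 in G to K, 78 of 78 were below 0 in each set, and none of the 78 passed the test of a difference between sets (lowest adjusted p = 0.106 in edgeR). In a separate fit of the 2797 genes with an average log2 CPM of at least 6, which held 76 of the 78, 17 genes depended on the set. In D to F 48 of the 78 passed at an unadjusted p and 0 at an adjusted p, and in G to K 76 and 69 did. Both sets entered the fit that chose the 78, so their signs within a set are no separate test.

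Of the 61 higher genes 54 had the same sign in both sets and 22 passed at an unadjusted p in D to F, where 7.61% of all genes did. None passed the test of a difference between sets. Both sets entered the fit that chose the 61, so these counts are no separate test.

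**Figure D5:**
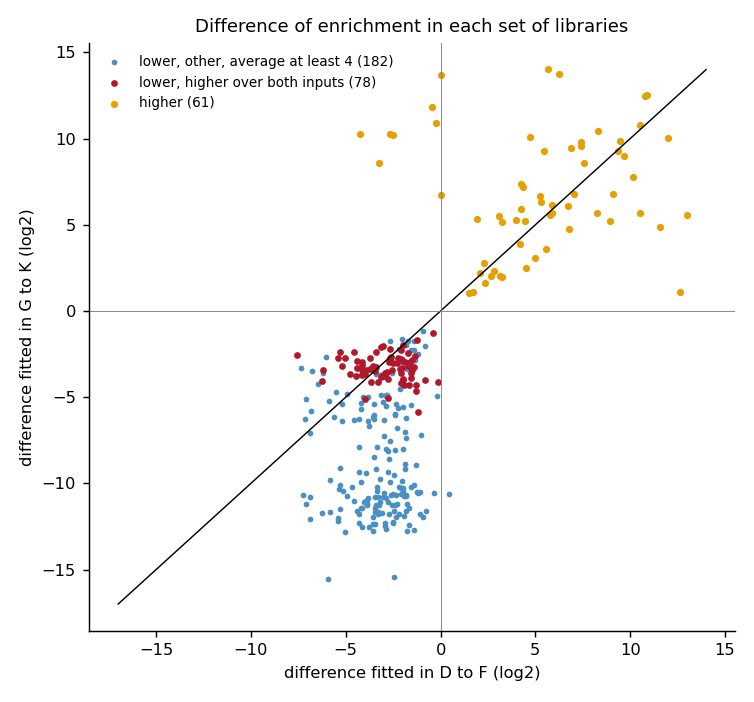
Difference of enrichment fitted in D to F (log2, x axis) against that in G to K (log2, y axis) for the 78 genes enriched over both inputs, the 61 higher genes and the other lower genes with an average log2 CPM of at least 4; each point is a gene and the diagonal marks equal values. The 78 genes lie around -2.75 on the x axis and -3.32 on the y axis, and the other lower genes reach lower on the y axis than on the x axis.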

How the data were processed

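Counts of reads per Ensembl gene, whole numbers from HTSeq, were deposited by the authors. Their table of log2 CPM and fold changes was not used here. Per the submitters' processing notes the tools were FastQC 0.11.7, Trimmomatic 0.38, Bowtie2 2.3.5, STAR 2.7.0d, HTSeq 0.9.1 and edgeR. Libraries were made with a low-input SMART-Seq kit, per the labels' protocols. Genome build and counting strand are not given in the sources used here, so reads of overlapping or antisense genes cannot be told apart. The 50714 identifiers shared by both sets were used, and all are in GENCODE M21 (GRCm38), which gave symbols and coordinates.

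All 32 libraries were fitted in edgeR 4.0.16 (R 4.3.3) with fraction and set as terms, TMM scaling and the filterByExpr filter (minimum 10). Quasi-likelihood p-values were adjusted over all genes by the Benjamini-Hochberg method, with a threshold of 0.05. Means per fraction and set gave the values within sets. Levels are given as log2 CPM (prior 2), on which -3.09 is a count of 0. SE is the log2 value over the square root of F. The fit was tested on counts simulated from its own means and dispersions, with set as an additive term. That simulation does not cover the few genes detected in PeMP_TRAP of G to K or a difference that depends on the set.

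Named by rule were the 12 highest and 12 lowest differences among passing genes whose average log2 CPM reached 4, leaving out predicted genes and pseudogenes and requiring 1 sign in both sets, together with Cx3cr1, Rpl10a and list members. Members, lists and tests were chosen with earlier results of these data known. Alternatives used RLE factors, total counts, other filters, limma 3.58.1, DESeq2 1.42.0, thinning, a replicate block and left-out letters. Some items are not reported here.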

Additional observations from a re-analysis of the deposited data

Results flagged for a closer look

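The levels of 20 genes were examined in each of the 4 fractions for a single library far from the other 7, and 16 of 80 groups held one, where chance gives about 1 in 20. Replicate D was the lowest library of SN_input for Cx3cr1 (4.85 log2 CPM), Kalrn (4.50), Plek (-3.09, a count of 0), Nudt16 (-3.09) and mt-Nd4 (11.9), and that library detected 10023 genes, the fewest in SN_input. Replicate D was also the lowest for Nudt16 in MG_TRAP (-3.09) and Eif3h in Input (5.39), and the highest in PeMP_TRAP for C1qa (14.3) and Apoe (15.3). Other single libraries were replicate F for P2ry12 in Input (2.07), H for Plek in PeMP_TRAP (-3.09), E for Nudt16 in PeMP_TRAP (-0.21), E for mt-Tc in MG_TRAP (2.87) and E for Eif3h in PeMP_TRAP (6.51). For Slpi, H stood high in Input (0.343) and G in SN_input (-0.563). Without replicate D the 78 genes enriched over both inputs had a median difference of -3.33, and 76 of them were called lower.

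The difference of 7 of the 92 named genes depended on the set by the test between sets. The difference in G to K minus that in D to F was -7.97 for Slc15a2, -9.11 for Fat1, -8.30 for Cops7b, -6.64 for Fahd2a, -7.77 for Vps37c, -4.71 for Mbp and -8.75 for Ermn, all lower in G to K. Their adjusted p-values in edgeR ran from 0.0105 (Ermn) to 0.0439 (Slc15a2).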

How the results depend on the processing

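The count of genes called in the difference was 94 (13 higher, 81 lower) among genes with an average log2 CPM of at least 6, 52 (2 and 50) with libraries thinned to equal depth, 265 (2 and 263) in limma voom, 0 (0 and 0; 883 at an unadjusted p) in D to F fitted alone and 4600 (92 and 4508) in G to K fitted alone. Genes called higher numbered 256 with no filter and 108 in DESeq2. Leaving out 1 letter gave 1014 to 2543 calls, 30 to 77 higher and 981 to 2474 lower, with 1052 without replicate G, 1014 without H, 1037 without I and 1162 without J. The dependence on set was called in 17 (average of at least 6), 5 (thinned), 688 (voom) and 1092 to 2087 genes (1 letter left out, the lowest without F). MG_TRAP minus Input gave 2626 (no filter), 621 (average of at least 6), 329 (D to F), 500 (thinned), 3233 (voom) and 1753 (DESeq2). PeMP_TRAP minus SN_input gave 931 (average of at least 6), 372 (D to F), 1897 (thinned) and 3110 (voom). PeMP_TRAP minus MG_TRAP gave 6100 (no filter), 230 (average of at least 6), 0 (D to F), 6653 (G to K), 1152 (thinned) and 1861 (voom). SN_input minus Input gave 243 (RLE), 6 (D to F), 607 (G to K), 92 (thinned), 1328 (voom) and 195 to 509 (1 letter left out). The cause of these changes was not tested.

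With the replicate letter as a block, 849 genes were called (23 higher, 826 lower), 19 of the 61 higher genes among them, and 1016 for the dependence on set. Libraries of the same letter had correlated deviations above 0.1 in 16 of 48 pairs (-0.0505 to 0.544). In D, E and F they were above 0.1 between Input and MG_TRAP (0.544, 0.264 and 0.31) and between MG_TRAP and PeMP_TRAP (0.242, 0.296 and 0.105) but not in every pair of fractions, so pairing by letter was not settled. Of 78 named genes called, 10 had an adjusted p above the threshold in edgeR with the block: Mdm2 (0.0612), mt-Tn (0.0781), Sept1 (0.180), Med15 (0.229), Eif3h (0.0589), Pros1 (0.0513), Fcgr2b (0.0709), Ccl9 (0.109), Ctsh (0.0699) and Dab2 (0.0571). Of the called list genes outside the 78, Megf10 (0.0585), Tlr1 (0.0893), Tlr4 (0.0629), Tlr6 (0.0526), Gad2 (0.0608), Shank3 (0.0989), Aspa (0.0657), Olig2 (0.0966) and Mirg (0.0867) were above it too. Of the 78, 49 kept their call with any 1 letter left out, and 57 lost it thinned, 39 in voom and 8 in G to K alone. The difference of Rpl10a turned positive with RLE factors (0.22), total counts (0.19), genes with an average of at least 6 (0.015), the replicate block (0.26), D to F (0.50), G to K (0.89), voom (0.48) and DESeq2 (0.22), and with 1 letter left out it ran from -0.71 to 1.06, positive only without F. The 78 genes enriched over both inputs were below 0 in every alternative that tested them (76 of them at an average of at least 6), and were called lower in 71 (RLE), 62 (total counts), 52 (voom), 76 (DESeq2), 66 (block), 20 (thinned), 0 (D to F) and 49 to 76 (1 letter left out). With mitochondrially encoded genes left out, an alternative chosen after seeing the data, 1785 genes were called and all 78 were lower.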
